A study of Mus musculus with 3 samples.

Results

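Osteoblast lineage cells were found in all 3 single-cell libraries of mouse intervertebral disc, as barcodes with a UMI (a counted transcript molecule) of at least 3 of the bone genes Ibsp, Sp7, Dmp1, Phex, Ifitm5 and Bglap2. A member also had 0 UMIs of the leukocyte gene Ptprc and fewer than 3 of the cartilage genes Col9a1, Matn3, Cnmd, Snorc and Col11a2. After barcodes under 500 genes or over 15% mitochondrial UMIs were dropped, 927 of the 26898 that remained were members. The study has 1 group, untreated Shh-cre:R26R-tdTomato mice at postnatal day 30, in 3 libraries that each pool cells of litter-matched animals. In these mice Cre under Shh control turns on the red reporter tdTomato in cells that express Shh and in their descendants, the lineage of the nucleus pulposus at the core of the disc. Discs were freed by cutting through the bony endplates of the vertebrae, digested with collagenase and sorted for tdTomato before 10x Genomics 3' sequencing. The series has no treated group and no group without the reporter. Transcripts of tdTomato and Cre were not analysed here, so whether a member carried the reporter was not measured.

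Osteoblasts build bone. They secrete type I collagen and proteins such as osteocalcin (the Bglap genes), bone sialoprotein (Ibsp) and osteopontin (Spp1), and the alkaline phosphatase Alpl readies this matrix for mineral. The transcription factors Runx2 and Sp7 set up the lineage, which arises from skeletal stromal cells and ends in osteocytes, the cells walled into bone that make Dmp1, Phex, Mepe and Sost.

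The libraries held 64695292, 145925353 and 137188648 UMIs over 7430, 11767 and 11032 barcodes, and members had a median of 9136, 19660.0 and 19022 UMIs in libraries 1, 2 and 3. Pairs of libraries shared 24 to 224 barcode sequences, and 0, 5 and 15 members had a barcode listed in more than 1 library. Members of library 1 stood apart, with a median mitochondrial share of 5.84% against 3.51% and 3.05%. In CPM (UMIs scaled to 1e6 over the summed cells), the nucleus pulposus genes Krt8, Krt18, Krt19 and T summed to 264, 1.59 and 0.446 in members, with T at 0 in library 2 and Krt19 at 0 in library 3. The 6 Schwann cell and neuron genes summed to 569.7, 9.32 and 10.0 CPM, with Sox10 at 0 in every library. Other panels summed over members to 179, 2526 and 1868 CPM (erythroid, 7 genes), 1502, 856 and 1638 CPM (neutrophil, 8 genes), 345, 132 and 194 CPM (B lineage, 6 genes) and 285, 201 and 217 CPM (osteoclast, 8 genes). At least 3 B lineage genes were found in 0, 6 and 32 members and at least 1% haemoglobin UMIs in 0, 3 and 9. The part of these cells in the results was not tested beyond refits without them.

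Members made up 38 of 5732 kept barcodes in library 1, or 0.663% (95% Clopper-Pearson interval 0.470 to 0.909). They made up 213 of 10792, or 1.97% (1.72 to 2.25), in library 2 and 676 of 10374, or 6.52% (6.05 to 7.01), in library 3. The mean share was 3.05% ± 3.07 (SD, n = 3), and the 3 intervals, which cover counting error only, do not overlap. The dissection and the sort can set such a share, so it is not the makeup of the disc.

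The 6 genes that chose the members are given as a description. Ibsp stood at 5455, 6395 and 6886 CPM in libraries 1, 2 and 3, and Sp7 at 253, 227 and 236 CPM. Both were close across libraries. Bglap2, an osteocalcin gene, was at 558, 9432 and 15167 CPM and Ifitm5, a membrane protein of osteoblasts, at 239, 1094 and 1178 CPM, both lowest in library 1. Dmp1, a matrix phosphoprotein, was at 489, 127 and 170.1 CPM and Phex, an endopeptidase of phosphate control, at 188, 117 and 95.2 CPM, both highest in library 1. All 6 genes were detected in 2, 56 and 198 members and exactly 3 in 16, 27 and 54. Members just inside the limit, with 3 genes, had Sp7 at 184, 188 and 189.8 CPM and Dmp1 at 27.9, 5.22 and 31.9 CPM. The 24, 34 and 85 cells just outside it, with 2 genes, had Sp7 at 223, 93.9 and 39.0 CPM, Dmp1 at 9.71, 2.93 and 4.98 CPM and the marrow chemokine Cxcl12 at 5116, 5191 and 1968 CPM, against 563, 275 and 250.3 CPM in members. Col11a2, a type XI collagen chain and 1 of the 5 cartilage genes of the rule, was nonetheless at 609, 1846 and 2175 CPM in members and at 2908, 1552 and 1532 CPM in chondrocytes of the same libraries. The 13 chondrocyte markers summed to 1043, 1918 and 2227 CPM in members, most of it Col11a2, and to 66530.3, 60599.7 and 48735 CPM in chondrocytes, with Matn1 at 0 in members of every library.

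Bone genes outside the rule were abundant in members too. Col1a1, the main chain of type I collagen, stood at 27559, 94759.9 and 101034 CPM, and Col1a1 and Col1a2 together made up a median of 1.85%, 17.4% and 19.1% of a member's UMIs. Bglap, a neighbour of Bglap2 on chromosome 3, stood at 1622, 27714 and 37831 CPM. Both were lowest in library 1. Bglap, Bglap2 and Bglap3 are near-identical copies, and how reads were divided among them is uncertain, so Bglap is not independent of the rule gene Bglap2. Spp1 went the other way, at 31030.1, 18377 and 15832 CPM. Each 3' UMI stands for a transcript whatever its length, so length does not set the CPM levels of different genes. Genes can still differ in capture and in how reads were assigned, so levels of different genes compare only roughly.

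**Figure D1:**
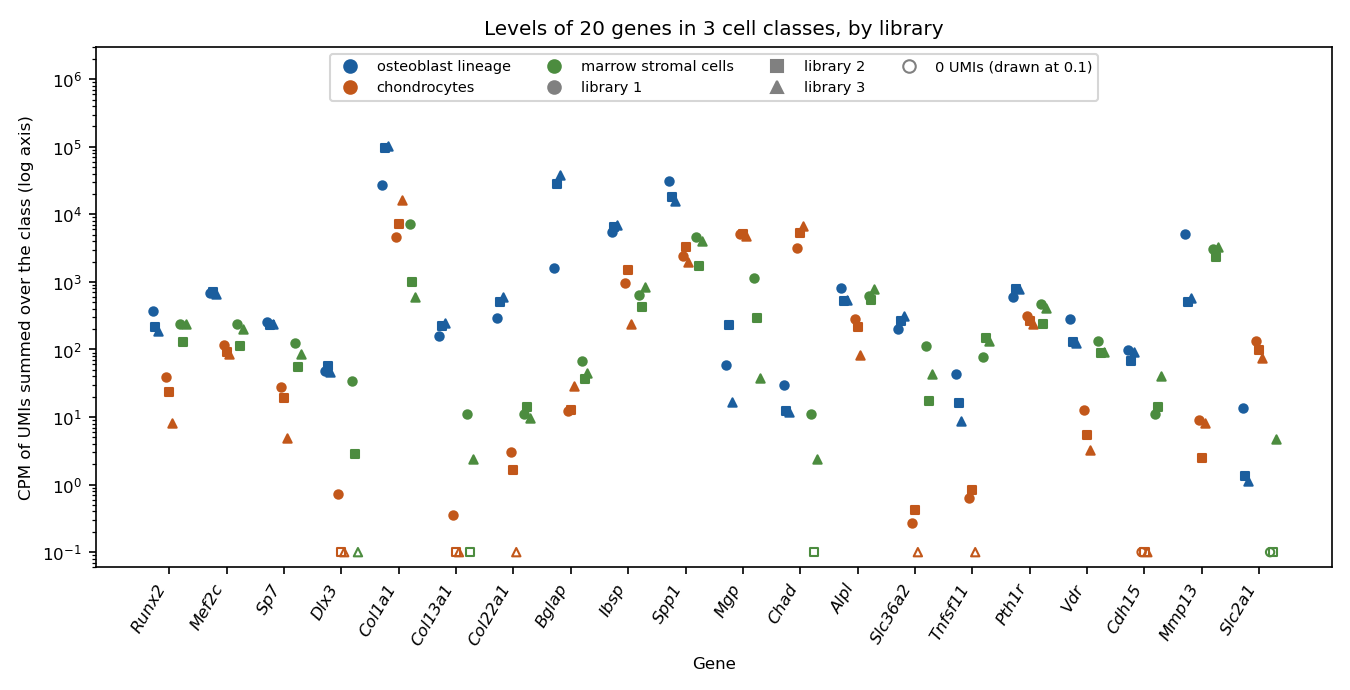
CPM of summed UMIs (log axis) over the cells of a class, with a point for each library and class; open symbols stand for 0 UMIs. Bglap and Col1a1 are lowest in library 1 of the osteoblast lineage cells, at 1622 and 27559 CPM, and Slc36a2 is at 199.8, 263 and 313 CPM in them and at 0.268, 0.414 and 0 CPM in chondrocytes.

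The promoters of Bglap, Spp1 and Mmp13 are shown because all 3 are textbook targets of Runx2, which binds AACCACA and its shorter core ACCACA. In addition, Bglap and Spp1 differed between members with and without Mmp13, as described further on. The 150 bases before each start site are from RefSeq's promoter table for GRCm38.p6, 5' to 3' on the gene's strand, at chr3:88384467-88384616 (minus strand), chr5:104434961-104435110 (plus strand, the first of 2 promoters listed) and chr9:7272364-7272513 (plus strand). Capitals mark these letters and TATAAA, the TATA box.
Bglap: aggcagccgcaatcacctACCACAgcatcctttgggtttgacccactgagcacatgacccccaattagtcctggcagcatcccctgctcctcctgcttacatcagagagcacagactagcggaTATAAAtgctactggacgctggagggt
Spp1: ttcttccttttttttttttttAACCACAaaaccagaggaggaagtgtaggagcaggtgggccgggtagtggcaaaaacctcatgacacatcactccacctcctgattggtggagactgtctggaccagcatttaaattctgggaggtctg
Mmp13: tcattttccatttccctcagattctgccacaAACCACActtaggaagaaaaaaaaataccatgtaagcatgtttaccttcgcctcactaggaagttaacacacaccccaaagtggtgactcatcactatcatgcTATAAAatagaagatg
ACCACA begins 132, 128 and 118 bases before the start of Bglap, Spp1 and Mmp13, within AACCACA in the last pair. TATAAA begins 27 bases before the start of Bglap and 16 before that of Mmp13. Of the first listed promoters of 27025 genes, 8.53% hold ACCACA and 2.68% AACCACA on either strand, and 5.26% hold TATAAA on the gene's strand. ACCACA is in 5.33% of promoters of genes tested against chondrocytes, as described below. It is in 5.86% of those called higher in members and 5.20% of those called lower. For AACCACA these shares are 1.51%, 2.03% and 1.68%. The 3 printed genes were picked by name, so they do not stand for genes higher in members. A match is a description of these letters, not a site that was measured.

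To set depth aside, members were thinned to 2000 UMIs each, which kept 38, 210 and 673. The share with a UMI was set beside that of B lineage cells, which should lack bone genes. Only B lineage cells without a UMI of the bone genes of the rule, other than the gene measured, were used. Before thinning, this limit kept 1046 of 1083, 2969 of 3157 and 3213 of 3896 cells for Runx2. It drops cells that carried bone RNA, so the shares in B lineage cells can understate the background. Runx2 was found in 63.2%, 28.6% and 31.1% of thinned members and in at most 0.943% of thinned B lineage cells. Pth1r, the parathyroid hormone receptor, was found in 68.4%, 80.0% and 78.2% of members, against at most 1.27% of B lineage cells. At full depth Runx2 was found in 92.1%, 90.1% and 91.7% of members. The most abundant genes had a background of their own: Col1a1 was found in 97.4%, 98.1% and 99.4% of thinned members and in 4.70%, 10.9% and 26.8% of B lineage cells. All B lineage cells, before the limit on bone genes and before thinning, had a median depth of 3122, 4719 and 3440.0 UMIs.

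Of the genes that mark osteocytes, Sost, Fgf23, Mepe and Pdpn were scarce, while Dmp1 and Phex, which the rule used, stood at the levels given above. Sost, which codes for the Wnt inhibitor sclerostin, stood at 0, 0 and 1.34 CPM, and Fgf23, a phosphate hormone, had 0 UMIs in all 3 libraries, which allows up to 0.164 CPM over all members (3 UMIs). Mepe, a matrix protein of osteocytes, was at 4.59, 8.86 and 5.80 CPM, and Pdpn, a marker of early osteocytes, at 13.8, 7.50 and 6.76 CPM. Neither went above 13.8 CPM in any library. Mki67, made by dividing cells, was found in 10.5%, 3.81% and 5.65% of thinned members and in 34.0%, 31.8% and 29.7% of B lineage cells. Col10a1, the collagen of hypertrophic cartilage, was at 6.89, 9.77 and 1.41 CPM.

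**Figure D2:**
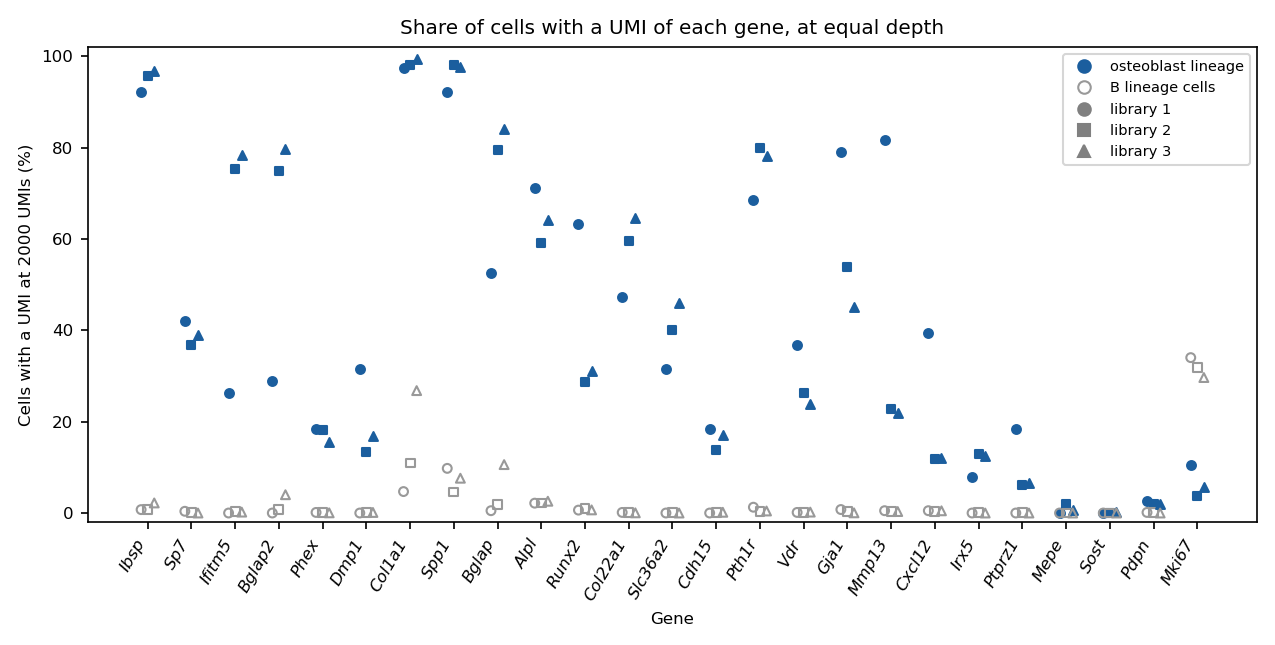
Percentage of cells with at least 1 UMI of each gene after thinning to 2000 UMIs, for osteoblast lineage cells and B lineage cells of each library. The B lineage cells had 0 UMIs of the bone genes of the rule other than the gene shown. Their shares can thus understate the background. Sost and Mepe are at or near 0% in members, Mmp13 is at 81.6%, 22.9% and 21.8% in libraries 1, 2 and 3, and B lineage cells show a background of Col1a1 of up to 26.8%.

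Members were compared with chondrocytes, the cells of cartilage, from the same libraries: 992, 360 and 60 cells with at least 3 of the 5 cartilage genes and fewer than 3 of the bone genes. These cells also had 0 UMIs of Ptprc. The 8 tendon, ligament and annulus fibroblast genes summed to 12539, 15031 and 17936 CPM in them, against 175, 50.0 and 63.0 CPM in members. Cytl1, 1 of the 8, was at 8685, 10660 and 12471 CPM. The 4 nucleus pulposus genes summed to 234, 463 and 0 CPM in these cells. The name chondrocytes thus stands for the rule, and annulus-like cells were not set apart from it. The UMIs of each class were added up within a library, and edgeR's quasi-likelihood test was run on these sums, with the library as a block and Benjamini-Hochberg adjustment. Of 11669 genes tested, 2770 (23.7%) passed an adjusted p of 0.05, 1163 (9.97%) higher and 1607 (13.8%) lower in members. Both classes were chosen by markers, so genes that go with those markers differ by the choice of cells, and the genes of the rules are left out of the list counts. Here and below, classes are said not to overlap where the 3 library values of each lie apart. The share of all tested genes with this trait was not counted, so it is a description and may be common. Values after ± are standard errors on the log2 scale, worked out from the log2 fold change and the F statistic of the test. The p-values measure how the difference between the classes varies over 3 pools of animals.

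Of 12 tested transcription factors of the lineage, 8 were higher and 2 lower in members, with a median log2 fold change of 2.71 against -0.0016 over all genes tested. Runx2 was at 372, 215 and 189.6 CPM in members and at 39.7, 23.4 and 8.10 CPM in chondrocytes (log2 fold change 3.44 ± 0.32, edgeR adjusted p = 0.000305). The classes did not overlap, though chondrocytes held some Runx2. Mef2c, a factor of the Sost enhancer, was even across member libraries at 691, 699.9 and 661 CPM (2.86 ± 0.28). The homeobox factors Dlx3, Dlx5 and Dlx6 were 6.71, 2.55 and 4.81 higher on the log2 scale. Lef1, a partner of beta-catenin, was at 2.30, 1.82 and 2.30 CPM against 18.3, 15.3 and 13.0 CPM (-2.64 ± 0.36), and Zfp521, an antagonist of Runx2, also was lower (-2.08 ± 0.30).

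Of 14 collagen chains, 7 were higher and 6 lower (median log2 fold change 0.13). Col22a1, a collagen of tissue junctions, was at 294, 503 and 595 CPM against 3.03, 1.66 and 0 CPM in chondrocytes (7.43 ± 0.58). Col1a1 was 3.02 ± 0.58 higher on the log2 scale (edgeR adjusted p = 0.00882), from 4592, 7297 and 16354 CPM in chondrocytes. The classes did not overlap in either gene. The edgeR adjusted p of Col1a1 was 0.324 without library 2 and 0.168 without library 3. Col1a2, Col5a1 and Col5a2 lost their call in the same refits, at 0.373, 0.0744 and 0.347 without library 2 and 0.204, 0.0914 and 0.275 without library 3. The chains of type VI collagen, which forms the mesh around chondrocytes, were lower together: Col6a1 was at 147, 22.0 and 25.3 CPM against 1688, 1364 and 1966 CPM (-5.24 ± 0.51), and Col6a2 and Col6a3 were at -5.02 ± 0.54 and -3.54 ± 0.45. Col11a1, the partner of Col11a2, did not pass (-1.12 ± 0.65), with 604, 1979 and 2072 CPM in members.

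Of 19 genes that fold, modify and process collagen, 8 were higher and 4 lower. Lox, which cross-links collagen, was at 333, 582 and 572 CPM against 38.2, 50.6 and 50.2 CPM (3.42 ± 0.28). Bmp1 and Adamts2, which trim the ends of procollagen, differed by 3.39 ± 0.31 and 3.10 ± 0.26, and Creb3l1, a transcription factor of secretion, by 2.71 ± 0.23. Loxl2, a relative of Lox, went the opposite way, at 18.4, 8.41 and 8.77 CPM against 397, 284 and 309.6 CPM (-4.84 ± 0.21). Serpinh1, a collagen chaperone, did not pass (1.15 ± 0.37).

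Of 14 tested bone matrix proteins other than collagen, 4 were higher and 4 lower. Bglap was 9.63 ± 1.20 higher on the log2 scale, from 12.3, 12.8 and 29.2 CPM in chondrocytes, and 10.98 higher without library 1. Spp1 was at 2457, 3259 and 1966 CPM in chondrocytes (3.11 ± 0.42, edgeR adjusted p = 0.00167, and 0.0647 without library 3). Cthrc1, a secreted glycoprotein, was at 379, 1386 and 1179 CPM against 100.03, 70.2 and 138 CPM (3.19 ± 0.55). Sparc, an abundant calcium-binding protein, did not pass, at 11039, 42599 and 49782 CPM in members and 52879.9, 60966 and 68831 CPM in chondrocytes. Mgp, an inhibitor of mineral deposition, was at 59.7, 227 and 16.9 CPM against 5155, 5102 and 4779 CPM (-6.31 ± 0.78), and Chad, a cartilage adhesion protein, at 29.9, 12.3 and 11.97 CPM against 3163, 5334 and 6676 CPM (-8.28 ± 0.53). For both, every member library lay below every chondrocyte library.

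Of 16 tested genes of phosphate handling and mineralization, 4 were higher and 4 lower. Slc36a2, an amino acid transporter, was at 199.8, 263 and 313 CPM against 0.268, 0.414 and 0 CPM (9.35 ± 0.33). Alpl was at 804, 526 and 544 CPM against 285, 212 and 82.7 CPM (1.84 ± 0.38, edgeR adjusted p = 0.0116, and 0.0524 without library 3). Neither gene overlapped between the classes. Enpp1, which makes the mineral inhibitor pyrophosphate, and Slc20a1, a phosphate importer, were lower (-1.55 ± 0.25 and -3.92 ± 0.39). Smpd3, a sphingomyelinase of mineralizing tissue, was at 243, 792 and 938 CPM against 207, 95.7 and 77.8 CPM and did not pass (edgeR adjusted p = 0.0611).

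Of 15 tested osteocyte genes, 6 were higher and 5 lower. Pcdh7, a protocadherin, was at 85.0, 75.9 and 81.2 CPM against 4.997, 3.52 and 0 CPM (4.38 ± 0.39), and Irx5, a homeobox factor, at 64.3, 100.4 and 60.1 CPM against 4.91, 8.91 and 14.6 CPM (3.29 ± 0.28). Ptprz1, a receptor phosphatase, was at 80.4, 42.3 and 36.9 CPM in members and had at most 0.207 CPM in chondrocytes. Mepe and Pdpn did not pass (1.68 ± 0.73 and 0.66 ± 0.44).

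Of 7 tested signals to bone-resorbing osteoclasts, 4 were higher and 2 lower. Tnfsf11, the ligand RANKL that induces osteoclasts, was at 43.6, 15.9 and 8.70 CPM against 0.625, 0.829 and 0 CPM (5.23 ± 0.48). Csf1, a growth factor of osteoclast precursors, was at 181, 42.3 and 34.0 CPM against 7.85, 5.18 and 9.72 CPM (3.50 ± 0.36). Both were highest in library 1 and neither overlapped between the classes. Tnfrsf11b, the decoy receptor that blocks RANKL, was at 9.19, 14.5 and 8.77 CPM against 95.7, 73.6 and 37.3 CPM (-2.30 ± 0.31).

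In the Wnt pathway, which drives bone formation, 5 of 17 tested genes were higher and 5 lower. Lrp4, a receptor that presents sclerostin, was at 301, 107 and 87.7 CPM against 2.86, 3.11 and 4.86 CPM (5.75 ± 0.35). The ligand Wnt4 was at 147, 64.3 and 39.7 CPM against 24.0, 13.7 and 3.24 CPM (2.51 ± 0.25), and Dkk1, a secreted inhibitor, at 43.6, 52.5 and 49.5 CPM against 7.94, 11.6 and 0 CPM (2.61 ± 0.45). The classes did not overlap in these 3 genes. The inhibitors Wif1, at 1358, 501 and 505 CPM in members, and Notum, at 91.9, 83.9 and 81.7 CPM, did not pass (-0.11 ± 0.32 and 0.11 ± 0.19).

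In the BMP and TGF-beta pathway 8 of 21 genes were higher and 6 lower. The ligands Bmp3, at 80.4, 107 and 130.1 CPM against 19.1, 18.6 and 32.4 CPM (2.28 ± 0.23), and Tgfb1, at 209, 253 and 268 CPM against 69.6, 81.4 and 102.1 CPM (1.60 ± 0.20), were among the 8. The ligand Bmp4 was 2.75 ± 0.46 higher, a call lost without library 2 (edgeR adjusted p = 0.0789). Inhba, an activin subunit, was lower (-4.75 ± 0.32). Of 11 genes of hormone signalling 4 were higher and 2 lower. Vdr, the vitamin D receptor, was at 280.2, 130.2 and 126 CPM against 12.6, 5.39 and 3.24 CPM (4.55 ± 0.26). Pth1r was at 590.3, 784 and 784 CPM against 312, 268 and 238 CPM (1.45 ± 0.32, edgeR adjusted p = 0.0157), a call lost without library 2 (0.0916) and without library 3 (0.137).

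In the hedgehog pathway, to which Shh belongs, 5 of 11 tested genes were lower and none higher. The co-receptors Cdon and Gas1 differed by -4.73 ± 0.21 and -3.06 ± 0.34. Hhip, which binds the ligands, was at 41.3, 25.5 and 27.6 CPM against 285, 120.0 and 299.8 CPM (-2.73 ± 0.26). The receptor Ptch1, at 142, 67.9 and 71.4 CPM in members and 145, 89.9 and 94.0 CPM in chondrocytes, and the target Gli1 did not pass (-0.22 ± 0.17 and -0.34 ± 0.23). Shh had 1 UMI in members of library 1 and 0 in libraries 2 and 3.

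Of 14 adhesion and gap junction genes, 8 were higher and 1 lower. Cdh15, a cadherin best known from muscle, was at 98.8, 67.0 and 93.1 CPM in members and had 0 UMIs in all chondrocytes, so it was at least 483-fold higher with 3 UMIs over the class as the floor. Cdh11, the osteoblast cadherin, was at 399.7, 289.5 and 259 CPM against 4.91, 3.94 and 14.6 CPM (5.81 ± 0.37), and Gja1, the connexin of osteoblast gap junctions, at 496, 400.4 and 309 CPM against 53.3, 42.5 and 16.2 CPM (3.47 ± 0.32). Every member library lay above every chondrocyte library. Of 13 nerve and vessel cues, 8 were higher and 2 lower. Nrp2, a receptor of semaphorins, was at 549, 629 and 662 CPM against 12.9, 18.9 and 4.86 CPM (5.52 ± 0.41), and the axon guidance ligands Slit2 and Slit3 differed by 6.48 ± 0.32 and 4.71 ± 0.29. Vegfa, a vessel growth factor, was lower (-1.28 ± 0.22), a call lost without library 3 (edgeR adjusted p = 0.0573).

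Of 15 proteases and inhibitors, 9 were higher and 5 lower. Mmp13, a collagenase of bone and hypertrophic cartilage, was at 5120.0, 497 and 575 CPM in members and 9.10, 2.49 and 8.10 CPM in chondrocytes (8.05 ± 0.52, and 7.39 without library 1). Library 1 stood far above libraries 2 and 3. Mmp16, a membrane metalloproteinase, was even at 119, 115 and 120.0 CPM (3.49 ± 0.29). The inhibitor Timp1 was higher (2.68 ± 0.34), and Timp3 and the serine protease Htra1 were lower (-2.57 ± 0.27 and -2.98 ± 0.55).

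All 15 genes of the glycolysis and hypoxia list were lower than in chondrocytes, with a median log2 fold change of -2.35. Slc2a1, the glucose transporter, was at 13.8, 1.36 and 1.11 CPM against 133, 98.4 and 74.6 CPM (-5.35 ± 0.41), and Ldha, which makes lactate, at 443, 226 and 295 CPM against 1129.5, 1197 and 1266 CPM (-1.90 ± 0.25). Neither gene overlapped between the classes. Pfkp, a glycolytic kinase, Bnip3, a mitophagy receptor, and Hif1a, the hypoxia factor, differed by -5.57 ± 0.45, -3.78 ± 0.38 and -1.77 ± 0.19. Gapdh, a glycolytic enzyme, was lower (-1.47 ± 0.23) and lost its call without library 2 (edgeR adjusted p = 0.0922) and without library 3 (0.0505). In every alternative fit 14 or 15 of the 15 genes were called lower and none higher.

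Without library 1, 4327 genes passed, and of 100 called genes that were followed by name none lost its call and 25 moved by more than 1.5-fold. Without library 2 or 3, 1812 and 1762 passed and 9 and 12 of the 100 lost their call.

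**Figure D3:**
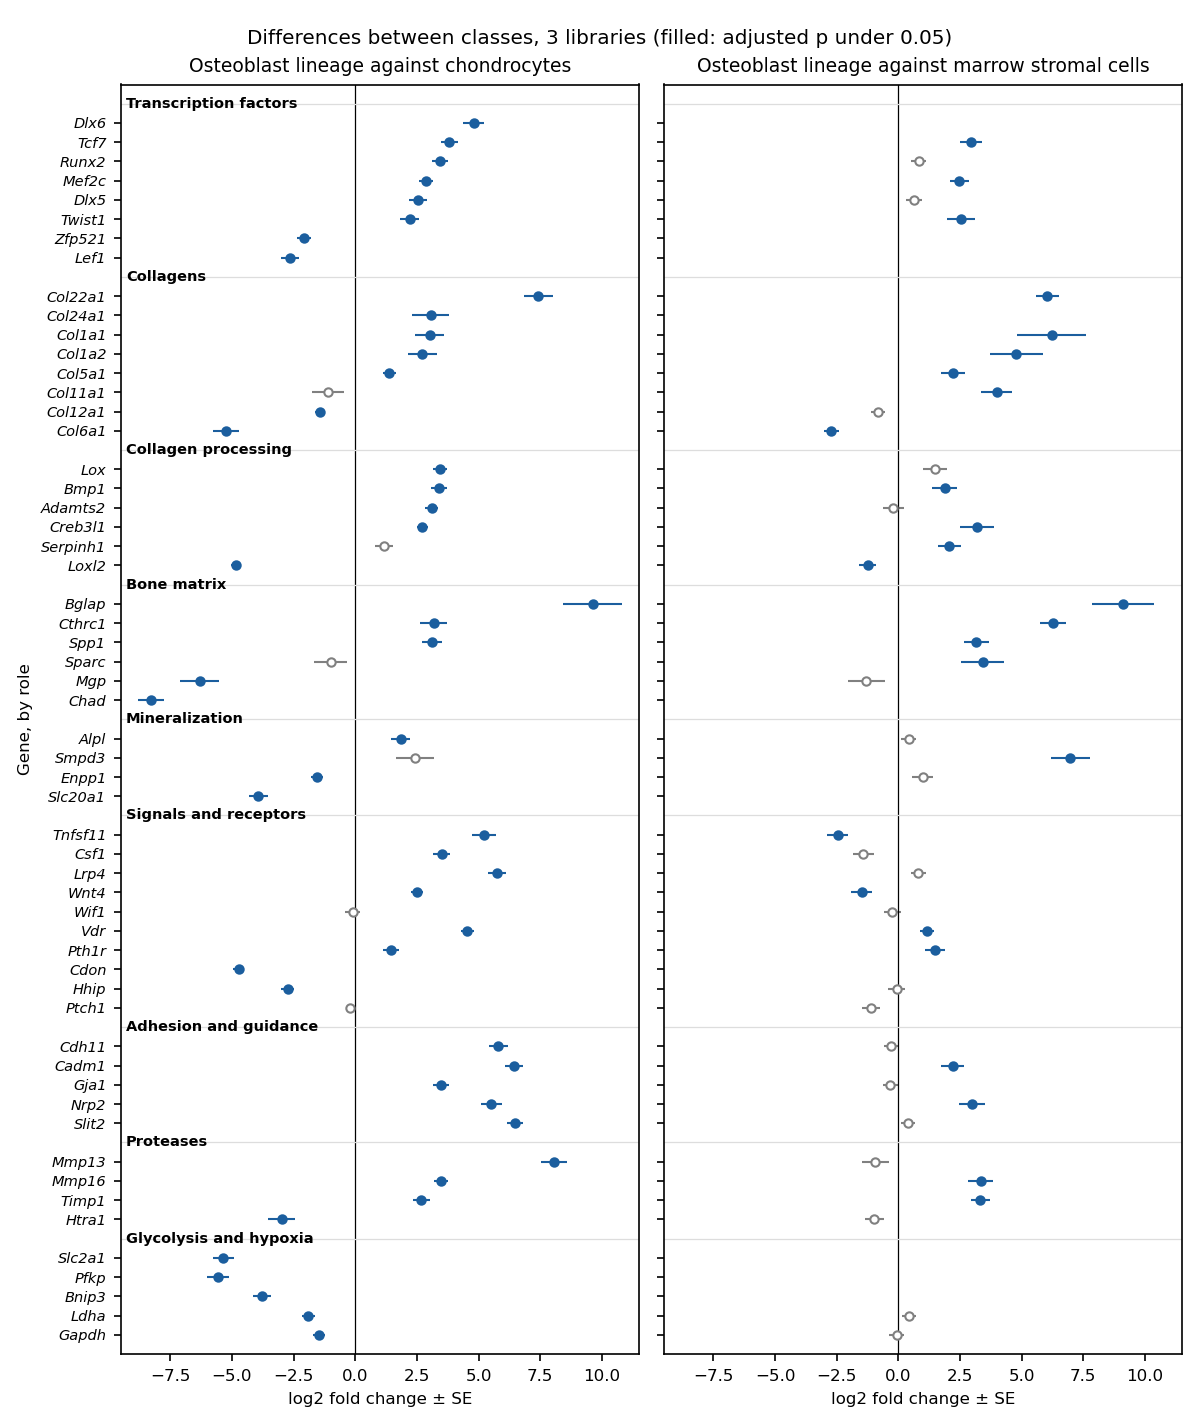
log2 fold change with its standard error (bars) of genes grouped by role, for osteoblast lineage cells against chondrocytes and against marrow stromal cells, from sums of 3 libraries; filled points passed an adjusted p of 0.05, and genes not tested or with 3 or fewer UMIs in a class have no point. Slc2a1 and Ldha lie left of 0 against chondrocytes, at -5.35 and -1.90, and Runx2 and Alpl are open against marrow stromal cells, at 0.83 and 0.42.

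Marrow stromal cells, which support blood cell formation, were 16, 31 and 49 cells with at least 3 of Cxcl12, Lepr, Adipoq, Kitl and Ebf3. Of 5445 genes tested, 951 (17.5%) passed, 421 (7.73%) higher and 530 (9.73%) lower in members. Hbb-bs, a haemoglobin gene, was at 716, 13276 and 11302 CPM in stromal cells and 115, 1644 and 1015 CPM in members, and 1414 genes passed in a refit without cells that held haemoglobin or B lineage genes. Without library 1, 2185 genes passed, and without library 2 or 3, 456 and 311.

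Several lineage genes did not pass between these classes. Runx2 was at 235, 129 and 234 CPM in stromal cells (0.83 ± 0.30, edgeR adjusted p = 0.0925) and Alpl at 616, 535 and 772 CPM (0.42 ± 0.30). Cdh11 and Gja1 differed by -0.30 ± 0.28 and -0.33 ± 0.31. Of 9 transcription factors 6 were higher in members and none lower, Mef2c by 2.47 ± 0.38 among them. The glycolysis and hypoxia list, all lower than in chondrocytes, had 8 genes tested here. Only Pkm was called, higher in members, with a median log2 fold change of 0.16 over the 8.

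Of 13 collagen chains 6 were higher and 2 lower, and of 18 folding and processing genes 14 were higher and 1 lower in members. Col1a1 was at 7164, 981 and 600.3 CPM in stromal cells (6.21 ± 1.39, edgeR adjusted p = 0.0129), with the call lost without library 2 (0.157) and without library 3 (0.0608). Col22a1 was at 11.2, 14.3 and 9.57 CPM (6.04 ± 0.45). Creb3l1 and Serpinh1 were 3.19 ± 0.70 and 2.07 ± 0.46 higher, with edgeR adjusted p = 0.114 and 0.121 without library 2 and 0.159 and 0.0902 without library 3. Over the alternative fits the number of the 18 folding genes called higher ran from 0 to 16. Pycr1, an enzyme of proline synthesis, was at 29.9, 115 and 148 CPM against 11.2, 2.86 and 9.57 CPM (4.73 ± 0.55).

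Of 10 bone matrix genes 6 were higher and 1 lower, and of 13 mineralization genes 7 were higher and 2 lower. Bglap was at 67.2, 37.2 and 45.4 CPM in stromal cells (9.09 ± 1.26), Cthrc1 at 22.4, 20.02 and 21.5 CPM (6.26 ± 0.53) and Smpd3 at 22.4, 0 and 14.3 CPM (6.97 ± 0.80). No member library overlapped with a stromal library in these 3 genes. Dkk1 and the lipase gene Lipc had 0 UMIs in all stromal cells. Dkk1 was at least 14.3-fold higher over all members pooled, with 3 UMIs over the class as the floor, and Lipc was at 29.9, 149 and 145 CPM in members, lowest in library 1.

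Factors that support blood cells were lower in members: of 7 tested outside the rule 6 were lower and none higher. Cxcl12 and Kitl, which helped choose the stromal cells, are such factors, so genes that go with them can be lower in members by that choice. Vcam1, an adhesion protein, was at 39.0, 18.2 and 14.0 CPM against 929, 418 and 660.1 CPM (-4.42 ± 0.33). Igf1, a growth factor, was at 25.3, 24.1 and 36.4 CPM against 1466, 798 and 1119 CPM (-4.71 ± 0.40), and Il7, a B cell factor, at 6.89, 2.05 and 1.78 CPM against 89.6, 62.9 and 71.7 CPM (-4.36 ± 0.36). None of the 3 overlapped between the classes. Of 10 genes of IGF and FGF signalling 7 were lower and 1 higher, Igfbp5 by -3.97 ± 0.43 and Igfbp4 by -3.64 ± 0.43. Tnfsf11 was at 78.4, 146 and 132 CPM in stromal cells (-2.46 ± 0.43), a call lost without library 3 (edgeR adjusted p = 0.117). Mmp13 was at 3022, 2368 and 3329 CPM and did not pass (-0.93 ± 0.55, edgeR adjusted p = 0.307). Among 9 Wnt genes tested 4 were higher and 2 lower, and among 16 BMP and TGF-beta genes 2 were higher and 2 lower. Wnt4 and Bmp4, higher than in chondrocytes, were lower here. Wnt4 was at 179, 235 and 407 CPM in stromal cells (-1.48 ± 0.43), a call lost without library 2 or 3. Bmp4 was at 56.0, 57.2 and 129 CPM (-2.75 ± 0.44), a call lost without library 3. Among 8 nerve and vessel cues tested 1 was higher and 3 lower.

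Dmp1 is made late in the lineage, and members were split by it after thinning to 2000 UMIs. Dmp1 is also a gene of the rule, so its UMIs counted towards membership. Cells without Dmp1 at full depth needed at least 3 of the other bone genes. The part of this choice of cells in the differences was not tested. Dmp1 was found in 12, 21 and 103 thinned members, or 31.6%, 10.0% and 15.3%. The separate draw used for the shares above gave 31.6%, 13.3% and 16.9%. At full depth Dmp1 was found in 47.4%, 40.4% and 48.4% of members. The group without it therefore includes cells whose Dmp1 UMIs were lost in thinning. Of 1537 genes tested between cells with and without it, 10 (0.651%) passed, 9 (0.586%) higher and 1 (0.0651%) lower, and Dmp1, which made the split, is 1 of the 9. Ptprz1 was at 250.0, 143 and 117 CPM with Dmp1 and 38.5, 34.4 and 29.8 CPM without (2.07 ± 0.44, edgeR adjusted p = 0.00370). Fam20c, the kinase of secreted phosphoproteins such as Dmp1, was at 375, 190.5 and 194 CPM against 212, 60.8 and 57.0 CPM (1.63 ± 0.28, edgeR adjusted p = 0.000123). Both were higher with Dmp1 in each library, and only the Ptprz1 values did not overlap between the groups. Ank, a pyrophosphate transporter, was at 83.3, 190.5 and 175 CPM against 115, 42.3 and 38.6 CPM (1.96 ± 0.38), the other way round in library 1. Slit2, Nudt4, Nupr1, Sept11 and Mmp13 differed by 0.66 to 1.40 (with Slit2 and Mmp13 the other way round in library 1) and lost their call without library 2, with edgeR adjusted p from 0.0546 to 0.999. The gene that was lower, Hbb-bs, codes for haemoglobin (-2.73 ± 0.22). Bglap, Col1a1 and Spp1 did not pass (0.18 ± 0.20, 0.61 ± 0.23 and 0.68 ± 0.18). The calls for Ptprz1, Fam20c and Ank ended under DESeq2, which called 2 genes, Dmp1 and Hbb-bs, and in a fit with no replicate block, which called 1, Dmp1.

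Members were also split by Mmp13, a choice made after its values were seen, so the differences are a description with no test. In a thinning draw separate from that of the shares above, Mmp13 was found in 31, 52 and 152 members, or 81.6%, 24.8% and 22.6%, and the levels that follow use all UMIs of those cells. Mmp13-positive members had a median of 8825, 13823 and 13225 UMIs against 11390.0, 21669.5 and 20178 in Mmp13-negative members. Hbb-bs was at 117, 4066 and 1519 CPM in positive and 109.8, 1054 and 906 CPM in negative members. The part of depth and of haemoglobin RNA in the split was not tested.

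Mmp13-positive members held less osteocalcin and type I collagen. Bglap was at 1464, 2853 and 6403 CPM in positive and 2044, 33806 and 44615 CPM in negative members. Col1a1 was at 25942, 44309 and 39308 CPM in positive and 31889, 106889 and 114341 CPM in negative members. The gap was wide in libraries 2 and 3 and small in library 1, where 7 members were negative. Cthrc1, Smpd3 and Col11a2 were lower in positive members of each library as well, Smpd3 at 129, 425 and 507 CPM against 549, 881 and 1031 CPM.

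Other genes were higher in Mmp13-positive members of all 3 libraries. Spp1 was at 40711, 34843 and 38760.5 CPM in positive and 5118, 14372 and 10889.8 CPM in negative members. Cxcl12 was at 773, 1093 and 1195 CPM against 0, 74.5 and 46.6 CPM, and Igfbp4, which binds IGFs, at 666, 972 and 1147 CPM against 16.9, 57.5 and 61.9 CPM. These genes differed far less between the positive members of the 3 libraries than between positive and negative members. Csf1 was at 237, 178 and 142 CPM against 33.8, 9.06 and 10.7 CPM, Tnfsf11 at 59.9, 40.5 and 41.5 CPM against 0, 9.91 and 1.63 CPM, and Wnt4 at 192, 219.8 and 130.3 CPM against 25.3, 26.3 and 20.2 CPM. Runx2 was at 407, 406 and 323 CPM against 279, 169 and 161 CPM and Alpl at 940.2, 899 and 884 CPM against 439, 435 and 471 CPM. Sp7 was close in both, at 265, 230.2 and 217 CPM against 219.6, 226 and 239 CPM. The stromal markers moved with the split too: Kitl was at 25.2, 72.9 and 71.2 CPM in positive and 8.45, 3.68 and 4.88 CPM in negative members, Adipoq at 0, 97.2 and 74.2 CPM against 0, 2.27 and 4.07 CPM, Ebf3 at 47.3, 38.2 and 44.8 CPM against 50.7, 1.70 and 1.63 CPM and Lepr at 18.9, 17.4 and 37.7 CPM against 25.3, 5.67 and 4.16 CPM. With Cxcl12, all 5 markers were higher in positive members of libraries 2 and 3, and Cxcl12 and Kitl also in library 1. The niche factors Foxc1 and Angpt1 were at 233, 119 and 118 CPM against 0, 20.1 and 17.2 CPM and at 59.9, 35.9 and 37.3 CPM against 0, 3.12 and 3.25 CPM. Stromal cells held Mmp13 at 3022, 2368 and 3329 CPM, and the part of stromal RNA in the split was not tested. Of the 3 genes whose promoters are printed, all of which hold ACCACA, Bglap was thus lower and Spp1 higher in the members that had Mmp13.

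**Figure D4:**
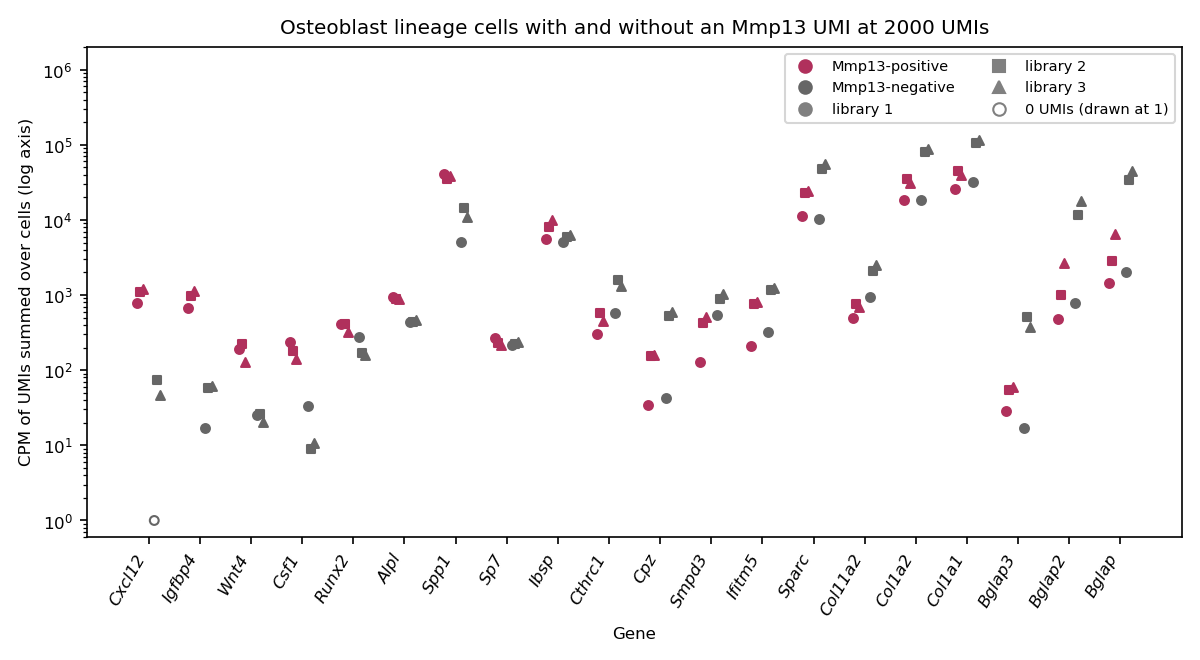
CPM of summed UMIs (log axis) over osteoblast lineage cells with and without an Mmp13 UMI after thinning to 2000 UMIs, by library; 0 is drawn open at 1, and the split was chosen after the data were seen. Cxcl12 and Spp1 are higher in positive members of all 3 libraries and Bglap and Col1a1 lower, while Sp7 is at 265, 230.2 and 217 CPM in positive and 219.6, 226 and 239 CPM in negative members.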

How the data were processed

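Each library is a 10x Genomics 3' library of sorted disc cells from pooled mice. The authors deposited UMI counts per gene and barcode; the processing notes name Cell Ranger 3.0.2 and Seurat 4, while the matrix headers give 3.0.1 for library 1 and 6.0.0 for libraries 2 and 3, per the file headers. The 30406 genes listed in all 3 libraries were used, with the depths given in the report. Kept barcodes had at least 500 genes and at most 15% mitochondrial UMIs; doublets were not removed, but Scrublet (scanpy 1.11.5) gave 2 alternatives, at its own threshold and at a preset rate of 0.8% per 1000 barcodes. The UMIs of at least 10 cells of a class were added up within a library, and the sums were compared with edgeR 4.0.16 (R 4.3.3; TMM, filterByExpr, quasi-likelihood, adjusted p of 0.05). Cells for shares and for the Dmp1 split were thinned to 2000 UMIs. The library is a block, since the cells compared within it were pooled from the same animals; deviations of same-library sums correlated at 0.151 to 0.424. Alternatives were DESeq2 1.42.0, its size factors, no low-count filter, no replicate block, other cell limits and leaving out each library. The code was tested on simulated data. Not every gene counted in the lists is reported here by name. Named genes came from lists by role and from the 15 largest differences in each direction among genes that averaged 50 CPM or more where higher; the Mmp13 split and Hbb-bs were added after their values were seen. The members and lists were chosen with earlier results of these data known.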

Additional observations from a re-analysis of the deposited data

How the results depend on the processing

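When a library was left out, the counts of called genes ran from 1762 to 4327 against chondrocytes, from 311 to 2185 against marrow stromal cells and from 4 to 22 in the Dmp1 split. Against stromal cells 1776 genes passed with no filter on low counts, and 1925 with a mitochondrial limit of 5%, which left libraries 2 and 3 in the fit. In the Dmp1 split the count was 2 with DESeq2, 6 after thinning to 4000 UMIs, 3 with a mitochondrial limit of 5%, 5 without doublets at Scrublet's own threshold and 5 without doublets at the preset rate. The mitochondrial limit and the preset rate left libraries 2 and 3 in that fit, and otherwise the cause of these moves was not tested. The genes called in this split changed too. Only 4 of the main 10 were among the 12 called with a minimum of 1000 genes, and 2 among the 5 at the preset rate. With no filter on low counts 5 of the 10 were among 13 called. All 10 were called again without library 1, with DESeq2 size factors and with a minimum of 200 genes. A changed set of cells could also change the thinning draw. A fit with no replicate block, which drops the pairing of sums by library, gave 2768 calls against chondrocytes, 724 against stromal cells and 1 in the Dmp1 split. No followed result turned its direction while called. The mean share of members stayed within 1 SD in every setting, but that SD is as large as the mean: the shares were 0.851%, 3.42% and 11.6% when cells holding B lineage or haemoglobin RNA were dropped from all barcodes, and 0.308% in library 1 with a mitochondrial limit of 5%. The refits without shared barcodes and without cells holding B lineage or haemoglobin RNA were chosen after seeing the data. The 16 to 49 stromal cells a library and the 12 Dmp1-positive members of library 1 limit those comparisons.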

Other observations

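A further 29, 16 and 6 cells had at least 3 of the bone genes and at least 3 of the cartilage genes, and so belong to neither class. Their median depth was 21159, 19799.5 and 22437 UMIs, against 9136, 19660.0 and 19022 in osteoblast lineage cells. Col10a1, the collagen of hypertrophic cartilage, was at 19004, 7887 and 7713 CPM in them and at 6.89, 9.77 and 1.41 CPM in osteoblast lineage cells. Ihh, the hedgehog ligand of hypertrophic cartilage, was at 586, 765 and 0 CPM in them, with 0 UMIs in library 3. Panx3, a pannexin of hypertrophic chondrocytes and osteoblasts, was at 431, 326 and 221 CPM, and Pth1r at 2263, 2123 and 967 CPM. They held cartilage and bone products side by side, with Col2a1, the main cartilage collagen, at 44854, 23106 and 6691 CPM and Ibsp at 7648, 9336 and 14273 CPM. Mmp13 was at 132, 389 and 179.5 CPM in them, lowest in library 1, where osteoblast lineage cells had the most. The rule fixes the bone and cartilage genes of these cells, and no test was made. Scrublet called 0, 1 and 0 of them doublets at its own threshold and 9, 5 and 2 at the preset rate.

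In addition, 4, 24 and 79 barcodes had at least 3 bone genes together with a Ptprc UMI, and 0, 7 and 32 of them were called doublets at Scrublet's own threshold and 3, 17 and 57 at the preset rate. Their median depth was 18120.0, 26865 and 32582 UMIs.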
